A study of Mus musculus with 8 samples.

Results

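The genes described here encode the enzymes and transporters of fatty acid beta-oxidation and acyl-CoA handling in the mouse heart. They are 29 genes chosen by name for their step in the pathway, each taken from the array probes whose RefSeq accession maps to its symbol. All 29 had a probe, among 15597 genes with a named probe, and 26 of them were bright enough to be tested, among 8875 genes tested in all. The study compared hearts of female mice of the inbred strain C57BL/6 that were 12 weeks old. The LPS group (4 mice) received 5 mg/kg lipopolysaccharide (LPS), an outer membrane glycolipid of Gram-negative bacteria that provokes systemic inflammation, by injection into the peritoneum. The saline group (4 mice) received saline by the same route, and all hearts were perfused with buffered saline and excised 8 h after injection. Total RNA from pieces of each heart was copied into biotin-labelled cRNA and hybridised to a spotted long-oligonucleotide array, giving 4 LPS and 4 saline arrays from 8 mice.

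Fatty acids are the main fuel of the adult heart. Inside the cell they are joined to coenzyme A, passed into mitochondria as carnitine esters, and shortened by repeated rounds of dehydrogenation, hydration, a further dehydrogenation and thiolysis. Unsaturated chains need extra isomerases and a reductase before the rounds can continue, electrons leave through the electron transfer flavoprotein, and malonyl-CoA holds back entry at the carnitine step. The comparison asked which of these transcripts differed between LPS and saline hearts.

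Each value below is a log2 normalised intensity, and a change is LPS minus saline on that scale, with the standard error (SE) of a moderated linear model (limma) fitted to all tested genes. A gene was called where its p, adjusted by Benjamini-Hochberg over all genes and unnamed probes tested, was under 0.05. Between 37.3% and 46.9% of gene probes exceeded the negative-control limit on the 8 arrays, and the median probe stood 12 to 18 intensity units over local background with LPS and 15 to 32 with saline. The arrays came from 3 scan days and 2 slide series, and 4 of them carried a mark, redip, left unexplained by the sources used here. The first slide series held LPS 2, LPS 3 and LPS 4 only. The heart pieces differed in the level of atrial markers within both groups: the atrial light chain Myl7 read 14.92 to 15.30 on 3 LPS arrays and 5.95 on LPS 4, against 15.88, 6.41, 10.84 and 13.76 on the saline arrays in order.

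Most transcripts of the pathway did not pass the test 8 h after LPS, and the 3 that did were all lower. They were Eci1 and Ech1, isomerases for unsaturated chains, and Acad10, an acyl-CoA dehydrogenase. Of the 26 members tested 3 fell, none rose and 23 did not pass. Over all genes 9.77% were called lower and 9.74% higher, so the members' share of falls was near the background. At an unadjusted p under 0.05, 6 members were lower and 1 was higher, beside 18.9% and 14.7% of all genes. The changes of 19 members were below 0 and those of 7 above it, with a median of -0.20, while 56.4% of all genes were below 0 and their median was -0.05. In 3 members, Eci1, Acad10 and the carnitine transporter Slc22a5, every LPS array lay below every saline array, against 12.3% of all genes. No member had every LPS array above every saline array, against 11.2% of all genes. In whole tissue, fewer cells of a type and less RNA per cell cannot be told apart.

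The count of falls moved with the arrays used. It was 1 without LPS 2, LPS 4, saline 1, saline 2 or saline 3, in each case Eci1, and 4 without LPS 3, when the malonyl-CoA decarboxylase Mlycd joined the list and Acadvl was called higher. It was 0 within the first scan day (LPS 2, 3 and 4 against saline 3 and 4) and 0 within the 4 unmarked arrays. Those settings called few genes at all, 1.76% and 0.0338% of all genes being lower in them. With the slide series as a block every change rests on LPS 1 as the only LPS array, so no count is given for it. Scaling each array to the median of all gene probes, in place of quantile normalization, moved the median of all genes to -0.35 and that of the members to -0.56. Under that scaling 6 of the 7 members above 0 turned negative, all but Acadvl.

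On single arrays the members' median, relative to each gene's saline mean, was -0.34, -0.27, -0.07 and -0.10 on LPS arrays 1 to 4. The saline arrays, in order, gave 0.06, 0.01, 0.00 and -0.02 and lie near 0 because they set the reference. On the LPS arrays 20, 17, 15 and 17 of the 26 members were below their saline mean. On the saline arrays 12, 13, 13 and 15 were, so LPS 3 and saline 4 had the same count. LPS 1 had the lowest member median and LPS 3 the highest among the LPS arrays, and all of them were below all saline arrays. Taken the same way, the median of all genes was -0.073, -0.050, -0.028 and -0.051 on LPS arrays. On saline arrays it was -0.027, -0.005, 0.011 and 0.015, so the same separation was seen over all genes.

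**Figure D1:**
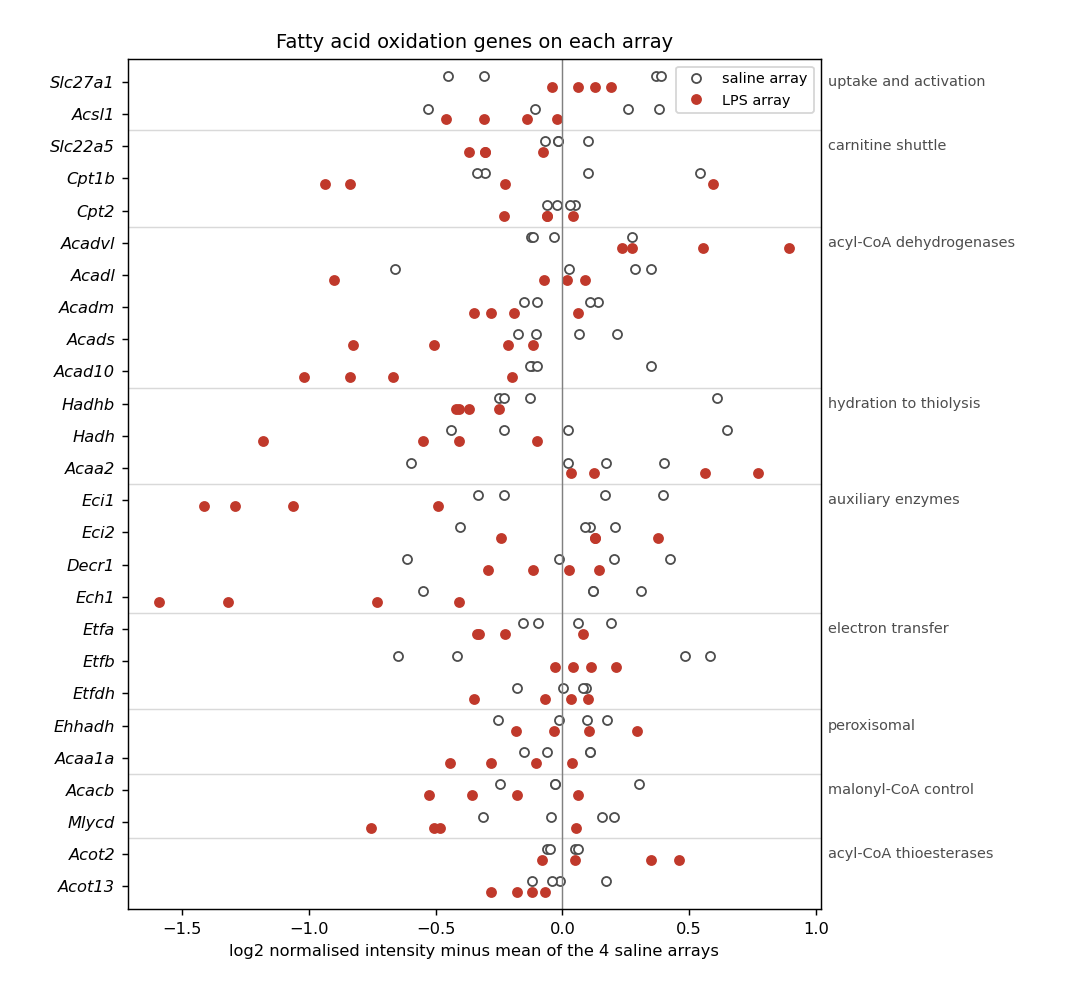
Log2 normalised intensity of each tested gene on each array (horizontal axis), minus the mean of its 4 saline arrays, with genes on the vertical axis grouped by pathway step; filled points are LPS arrays and open points saline arrays. Eci1, Acad10 and Slc22a5 show LPS points wholly below saline points, while most genes overlap.

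The plot of values by array shows that the spread between saline hearts differed widely among members. Etfb had a standard deviation of 0.62 over the 4 saline arrays and Acot2 one of 0.06. On the 4 LPS arrays the order was the reverse, at 0.10 for Etfb, the electron transfer flavoprotein beta subunit, and 0.26 for the thioesterase Acot2.

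Uptake and activation gave no call. Acsl1, the long-chain acyl-CoA synthetase that commits fatty acids to oxidation or storage, read 10.91, 11.23, 11.06 and 11.35 on LPS arrays 1 to 4, against 11.63, 10.84, 11.26 and 11.75 in the saline group, also in the order 1 to 4. Values of the other genes are given in the same order. The groups overlapped, saline 2 being the lowest of the 8. Its change was -0.23 (SE 0.20, 95% interval -0.68 to 0.22, adjusted p = 0.463). Slc27a1, a fatty acid transport protein, changed by 0.09 (SE 0.20, adjusted p = 0.796), with LPS arrays inside the saline range.

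The carnitine shuttle had 3 of 4 members measured, all with changes below 0 and none called. Slc22a5, the plasma membrane carnitine transporter, read 7.44, 7.50, 7.73 and 7.50 on LPS arrays and 7.91, 7.74, 7.79 and 7.79 on saline arrays. Every LPS array was below every saline array, LPS 3 and saline 2 by a narrow margin. Its change was -0.26 (SE 0.11, 95% interval -0.51 to -0.01, adjusted p = 0.135), and its other probe, above background on only 1 LPS array, has no reliable change.

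Cpt1b is the muscle form of carnitine palmitoyltransferase 1, the malonyl-CoA-sensitive entry step of the heart. It read 11.17, 11.78, 11.07 and 12.60 on LPS arrays and 11.70, 11.67, 12.11 and 12.55 on saline arrays. LPS 1 and LPS 3 were the lowest of the 8 arrays and LPS 4 was the highest. The change was -0.35 (SE 0.33, adjusted p = 0.490), and a second probe gave -0.37. Its 95% interval of -1.09 to 0.38 spans from a fall by 53.0% to a rise by 30.0%.

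Cpt2, which returns acyl groups from carnitine to coenzyme A inside the mitochondrion, was far tighter. It read 12.89, 13.06, 13.06 and 13.16 on LPS arrays and 13.06, 13.17, 13.15 and 13.10 on saline arrays. The groups overlapped and only LPS 1 lay below every saline array. Its change was -0.08 (SE 0.11, 95% interval -0.32 to 0.16, adjusted p = 0.662), the other probe giving -0.09. The liver form Cpt1a was not tested, being above background on 2 saline arrays and no LPS array. Its signal was 17, 26, 20 and 15 intensity units on LPS arrays and 90, 41, 21 and 15 on saline arrays.

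Acyl-CoA dehydrogenases, which open each round for chains of different length, held 1 fall and the largest positive change among the members. Acad10, a family member whose physiological role is less well defined, read 7.04, 7.22, 7.86 and 7.39 on LPS arrays (7.38 ± 0.35, SD, n = 4). On saline arrays it read 7.94, 7.93, 8.41 and 7.96 (8.06 ± 0.23, SD, n = 4). The groups did not overlap, although LPS 3 came close to the 3 lower saline arrays and saline 3 stood above the rest. Acad10 fell by 0.69 (SE 0.19, 95% interval -1.11 to -0.26, adjusted p = 0.0312), which is 1.61-fold lower. Its signal was 67 to 144 intensity units on LPS arrays and 191 to 428 on saline arrays, and an offset of 16 in place of 50 in the background correction gave -0.83.

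Acadvl, the very-long-chain enzyme of the inner membrane, read 13.54, 13.82, 13.50 and 14.16 on LPS arrays and 13.14, 13.15, 13.23 and 13.54 on saline arrays. LPS 3 lay below saline 4 and LPS 1 was level with it, while LPS 2 and LPS 4 passed every saline array. The change of 0.49 (SE 0.17, 95% interval 0.11 to 0.87, adjusted p = 0.0719) did not pass. It passed with the redip mark as a block (adjusted p = 0.0497) or without LPS 3 (0.57, adjusted p = 0.0442). It was -0.12 when the mean pixel of each spot was used in place of the median pixel.

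Acadl, the long-chain enzyme, read 10.58, 11.57, 11.41 and 11.50 on LPS arrays and 11.83, 10.82, 11.77 and 11.51 on saline arrays. LPS 1 and saline 2 stood well below the others of their group. The change was -0.22 (SE 0.27, adjusted p = 0.612), the other probe gave -0.49, and without LPS 1 it was 0.01. Acadm, the medium-chain enzyme, read 14.41, 14.34, 14.50 and 14.75 on LPS arrays and 14.59, 14.54, 14.83 and 14.80 on saline arrays. LPS 4 lay among the saline arrays and the other 3 LPS arrays below them. Its change was -0.19 (SE 0.13, adjusted p = 0.356), while a second probe gave -0.91 with overlapping groups. The spots of that second probe were uneven. Its median pixel signals were 770 to 1166 intensity units on LPS arrays and 1156 to 9657 on saline arrays. Its mean pixel signals were 4483 to 6729 and 6269 to 16176. The short-chain enzyme Acads changed by -0.42 (SE 0.17, adjusted p = 0.123).

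The later steps of the round gave no call from the brightest probe. Hadha and Hadhb encode the alpha and beta subunits of the mitochondrial trifunctional protein, which carries out hydration, the subsequent dehydrogenation and thiolysis of long chains. Hadhb read 13.41, 13.40, 13.45 and 13.57 on LPS arrays and 13.69, 14.43, 13.57 and 13.59 on saline arrays. The LPS arrays lay close together, saline 2 stood far above the rest, and LPS 4 touched saline 3. The change was -0.37 (SE 0.19, adjusted p = 0.208), and without saline 2 it was -0.16. Its second probe gave -0.75, and the mean of both probes passed at -0.56 (adjusted p = 0.00990).

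Hadha was not tested, its probe being above background on 1 LPS array and no saline array, with signals of 9 to 33 intensity units on LPS arrays and 1 to 29 on saline arrays. In the RefSeq promoter windows the annotated starts of Hadha and Hadhb lie head to head, 273 bases apart. Hadh, the medium- and short-chain hydroxyacyl-CoA dehydrogenase, changed by -0.56 (SE 0.27, adjusted p = 0.181), and its other probe by -0.87. Acaa2, the mitochondrial thiolase, changed by 0.37 (SE 0.23, adjusted p = 0.302) on its brightest probe. Its other probes gave -0.48 and -0.14, so the direction for Acaa2 depended on the probe.

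Auxiliary enzymes, which prepare the double bonds of unsaturated chains for oxidation, held the 2 largest falls. Eci1, the mitochondrial enoyl-CoA isomerase that shifts a misplaced double bond, read 10.50, 10.62, 11.42 and 10.85 on LPS arrays (10.85 ± 0.41, SD, n = 4). On saline arrays it read 12.08, 12.31, 11.68 and 11.58 (11.91 ± 0.34, SD, n = 4). Every LPS array was below every saline array, with LPS 3 nearest to saline 4. Eci1 fell by 1.06 (SE 0.23, 95% interval -1.57 to -0.56, adjusted p = 0.00998), a level 2.09-fold lower, or -52.2% with an interval of -66.3% to -32.1%.

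Ech1, the dienoyl-CoA isomerase of mitochondria and peroxisomes, read 14.19, 13.28, 13.87 and 13.01 on LPS arrays (13.58 ± 0.54, SD, n = 4). On saline arrays it read 14.72, 14.91, 14.72 and 14.05 (14.60 ± 0.38, SD, n = 4). LPS 1 lay above saline 4, so the groups overlapped, and LPS 2 and LPS 4 were the lowest. Ech1 fell by 1.01 (SE 0.27, 95% interval -1.62 to -0.41, adjusted p = 0.0272), which is 2.02-fold lower. The mean pixel of each spot gave -0.16 (adjusted p = 0.219), and omitting any 1 of LPS 2, LPS 4 and saline 1 to 3 also left it without a call.

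The other members of the step did not pass. Decr1, the dienoyl-CoA reductase that works beside Ech1 on unsaturated chains, read 11.35, 11.23, 11.09 and 10.91 on LPS arrays and 10.59, 11.41, 11.63 and 11.19 on saline arrays. All LPS arrays fell inside the saline range. Its change was -0.06 (SE 0.21, 95% interval -0.53 to 0.41, adjusted p = 0.867). Eci2, a related isomerase, changed by 0.10 (SE 0.17, 95% interval -0.29 to 0.49, adjusted p = 0.732). The differences between these genes and Eci1 were not tested.

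The promoter windows of the 3 genes that fell are printed because these genes moved in the same direction. Each runs 5′ to 3′ on the gene's own strand from 250 bases before the annotated start to 50 after it, from RefSeq on GRCm38.p6. Eci1 is on the plus strand at chr17:24426433-24426732, Ech1 on the plus strand at chr7:28825088-28825387 and Acad10 on the minus strand at chr5:121660461-121660760. Capitals mark GGGCGG on either strand (a GC box), CCAAT on either strand, and GCGC followed by any 2 bases and GCGC (the palindrome of nuclear respiratory factor 1).
Eci1: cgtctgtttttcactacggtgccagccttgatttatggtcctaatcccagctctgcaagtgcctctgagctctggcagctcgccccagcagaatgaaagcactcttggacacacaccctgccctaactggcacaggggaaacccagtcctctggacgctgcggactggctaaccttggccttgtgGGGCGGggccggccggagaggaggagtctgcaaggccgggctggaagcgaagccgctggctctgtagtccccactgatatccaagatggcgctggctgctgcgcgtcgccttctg
Ech1: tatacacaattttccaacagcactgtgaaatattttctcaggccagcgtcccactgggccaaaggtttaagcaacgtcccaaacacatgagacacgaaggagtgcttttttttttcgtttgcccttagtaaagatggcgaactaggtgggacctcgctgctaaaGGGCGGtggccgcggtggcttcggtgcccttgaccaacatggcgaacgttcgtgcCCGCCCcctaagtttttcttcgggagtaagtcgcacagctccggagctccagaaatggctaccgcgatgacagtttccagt
Acad10: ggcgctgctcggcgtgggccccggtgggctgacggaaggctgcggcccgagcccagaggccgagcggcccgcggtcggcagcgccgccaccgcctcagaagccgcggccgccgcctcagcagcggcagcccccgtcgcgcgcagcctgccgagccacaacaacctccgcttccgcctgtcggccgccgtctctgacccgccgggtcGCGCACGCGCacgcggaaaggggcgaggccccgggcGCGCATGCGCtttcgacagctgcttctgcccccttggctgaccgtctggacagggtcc
Eci1 had 1 GC box, Ech1 had 2, on opposite strands, and Acad10 had none but 2 copies of the GCGC palindrome. None of the 3 windows held CCAAT.

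Of the 29 members 25 had at least 1 window, giving 28 windows of 300 bases among 32851 for all genes, with Cpt1b, Acaa2, Decr1 and Acot13 not included. The member windows are not independent. Slc27a1 and Acsl1 had more than 1 each, and those of Hadha and Hadhb share 228 bases, where a GC box counts for both. GGGCGG was in 67.9% of the member windows and in 35.7% of all windows, searched on both strands. CCAAT was in 53.6% against 37.4%, the GCGC palindrome in 14.3% against 6.23%, and TATAAA in 3.57% against 13.6%. Median GC content was 60.7% in member windows and 52.7% in all windows. The nuclear receptor half-site AGGTCA was in 14.3% of member windows and 16.3% of all. Its longer forms, which contain it, were TNAAGGTCA (the estrogen-related receptor type) and a direct repeat of AGGTCA with 1 base between (the PPAR type). They were found in 0 of 28 member windows, against 1.28% and 0.0396% of all windows. At shares that low, 0 of 28 is the likely result for either form, so it is no contrast with all windows. These shares describe letters in short windows that hold no distal enhancer.

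Electron transfer gave no call. Etfdh, which passes electrons from the flavoprotein to ubiquinone, read 12.61, 13.06, 12.89 and 12.99 on LPS arrays and 13.05, 12.78, 13.04 and 12.96 on saline arrays. The groups overlapped, with LPS 1 the lowest and LPS 2 the highest of all arrays. Its change was -0.07 (SE 0.13, 95% interval -0.37 to 0.22, adjusted p = 0.741). The flavoprotein subunits changed by -0.20 for Etfa (SE 0.14, adjusted p = 0.338; other probes -0.30 and -0.02) and by 0.09 for Etfb (SE 0.26, adjusted p = 0.842).

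The peroxisomal members gave no call either. Acaa1a, the peroxisomal thiolase, changed by -0.20 (SE 0.14, adjusted p = 0.348). Ehhadh, the peroxisomal bifunctional enzyme, changed by 0.05 (SE 0.14, adjusted p = 0.852) but was above background on only 2 LPS and 3 saline arrays, where the offset in the background correction shrinks any change.

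Both malonyl-CoA enzymes had changes below 0 without a call. Mlycd, the decarboxylase that removes malonyl-CoA, read 10.64, 10.89, 11.45 and 10.91 on LPS arrays and 11.55, 11.60, 11.35 and 11.08 on saline arrays. LPS 3 lay inside the saline range and the other LPS arrays lay below it. Its change was -0.43 (SE 0.19, 95% interval -0.84 to -0.01, adjusted p = 0.145), and without LPS 3 it passed at -0.58 (adjusted p = 0.0271). Acacb, the acetyl-CoA carboxylase that makes malonyl-CoA near the mitochondrial surface, read 11.66, 11.83, 12.25 and 12.01 on LPS arrays and 12.16, 12.49, 12.16 and 11.94 on saline arrays. LPS 1 and LPS 2 were the lowest, and the groups overlapped. Its change was -0.25 (SE 0.16, adjusted p = 0.323).

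Acyl-CoA thioesterases, which release free fatty acids from coenzyme A, showed no call. Acot2, the mitochondrial enzyme, read 7.13, 7.56, 7.26 and 7.67 on LPS arrays and 7.26, 7.15, 7.16 and 7.27 on saline arrays. LPS 2 and LPS 4 were above all saline arrays and LPS 1 was below them. Its change was 0.20 (SE 0.14, adjusted p = 0.367), and its other probe gave -0.03. Acot1, its cytosolic paralog with a closely similar sequence, was above background on no array, with signals from -5 to 4 intensity units, and cross-hybridisation between these paralogs was not tested. Acot13 changed by -0.17 (SE 0.11, adjusted p = 0.344).

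**Figure D2:**
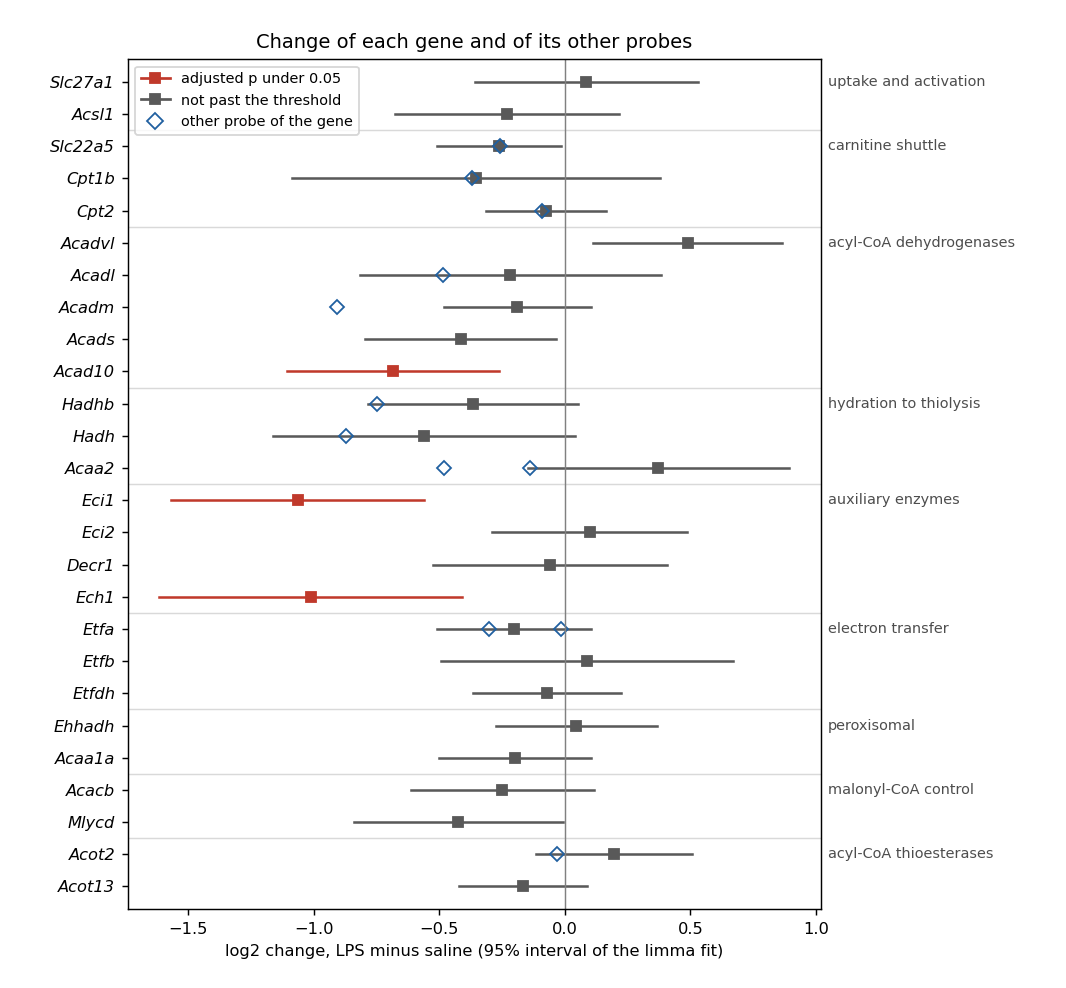
Log2 change, LPS minus saline, of each tested gene (squares) with its 95% interval from the limma fit (horizontal lines), and of the gene's other probes that passed the filter (diamonds), grouped by pathway step. Acad10, Eci1 and Ech1 are past the threshold. The second probe of Acadm, at -0.91 and with uneven spots, and those of Acaa2 lie away from the probe used.

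By step, the median change from the median pixel was lowest for the auxiliary enzymes at -0.54 (4 genes) and highest for the thioesterases at 0.01 (2 genes). The hydration to thiolysis step had a median of -0.37 (3 genes), malonyl-CoA control -0.34 (2), the carnitine shuttle -0.26 (3) and the dehydrogenases -0.22 (5). From the mean pixel of each spot the auxiliary median was -0.09, and malonyl-CoA control was then the lowest at -0.33. With the slide series as a block, which rests on LPS 1 as the only LPS array, the auxiliary median was -0.14. Peroxisomal members (-0.08, 2 genes), electron transfer (-0.07, 3) and uptake and activation (-0.07, 2) were near the median of all genes, -0.05. Of the 10 members with more than 1 measurable probe, 8 had probes that all pointed the same way (a Slc22a5 probe near background with LPS among them), and Acaa2 and Acot2 did not. None of the 3 genes that fell was among those 10. The members past an unadjusted p of 0.05 but without a call were Slc22a5, Acads and Mlycd, which were lower, and Acadvl, which was higher.

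The 3 falls differed in how they held when 1 array was left out. Eci1 kept its call in all 8 cases, with changes of -1.25 to -0.93 and adjusted p from 0.00169 to 0.0354. Ech1 kept it in 3 of 8, losing it without LPS 2, LPS 4, saline 1, saline 2 or saline 3 (changes of -1.21 to -0.82, adjusted p from 0.0148 to 0.0810). Acad10 kept it only without LPS 3 (-0.85 to -0.57, adjusted p from 0.00510 to 0.0882).

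**Figure D3:**
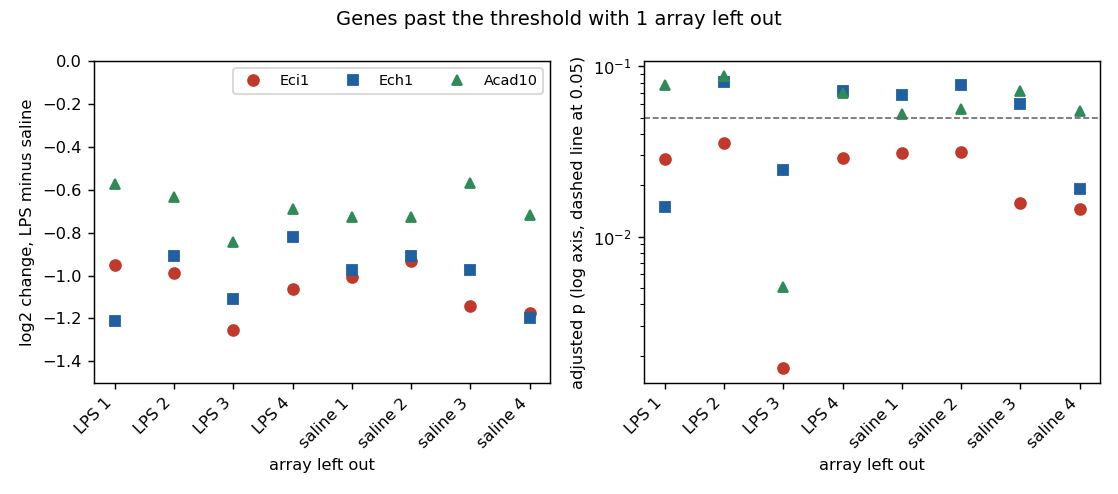
Log2 change (left) and adjusted p on a log axis (right) of Eci1, Ech1 and Acad10 when the array named on the horizontal axis was left out; the dashed line is 0.05. Only Eci1 stays under the line throughout, and Acad10 is under it only without LPS 3.

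Scan day and slide series were set against these falls. For LPS 2, LPS 3 and LPS 4, treatment and slide series cannot be told apart, because the first series held no saline array. With scan day as a block the 3 calls held, at -1.002 for Eci1, -0.917 for Ech1 and -0.755 for Acad10. Within the first scan day the changes were -0.666 (adjusted p = 0.164), -0.999 (adjusted p = 0.120) and -0.698 (adjusted p = 0.144), without a call. On the second day, LPS 1 minus saline 2 gave -1.81, -0.72 and -0.89, and the third day held saline 1 alone. Within the second slide series, where LPS 1 is the only LPS array, Eci1 was at -1.41, Acad10 at -1.02 and Ech1 at -0.41. Slide series as a block gave the same changes, because it too compares LPS 1 alone with the saline arrays. Within the 4 marked arrays the changes were -1.21 for Eci1, -1.33 for Ech1 and -0.64 for Acad10, the last with adjusted p = 0.0514. Within the 4 unmarked arrays they were -0.92, -0.69 and -0.73, with adjusted p from 0.325 to 0.466. All were below 0.

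The size of both isomerase falls depended on how a spot was summarised. From the mean pixel of each spot, in place of the median pixel, Eci1 fell by 0.54 (adjusted p = 0.0207), Acad10 by 0.57 (adjusted p = 0.0126), and Ech1 was at -0.16 (adjusted p = 0.219). Median pixel signals of Ech1 were 22412, 8118, 12356 and 5560 intensity units on LPS arrays and 52698, 36372, 21614 and 16000 on saline arrays. Its mean pixel signals were 30934, 21414, 23325 and 18816 against 39130, 34028, 28328 and 28630. The ratio of mean to median signal averaged 2.32 on LPS arrays and 1.19 on saline arrays for Ech1, and 2.51 and 1.53 for Eci1. For Acad10 it was 1.03 and 1.00. The part of spot shape in these results was not tested.

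**Figure D4:**
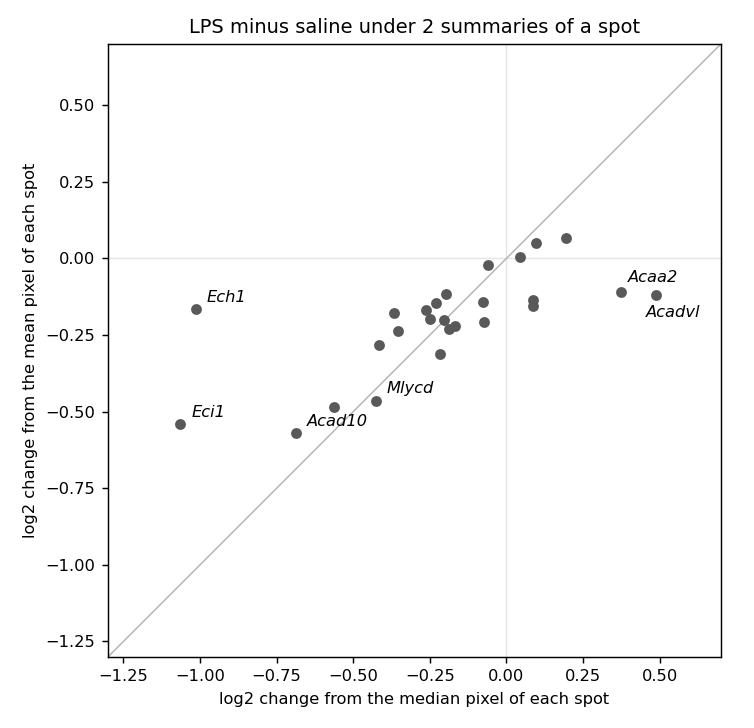
Log2 change, LPS minus saline, of each tested gene from the median pixel of its spots (horizontal axis) and from the mean pixel (vertical axis), with the diagonal of equal change. Ech1 moves from -1.01 to -0.16 and Eci1 from -1.06 to -0.54, Acad10 stays near the diagonal, and Acadvl and Acaa2 change sign.

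The other genes of the pathway were also mostly without a call. Of 33 further mitochondrial fatty acid genes 26 were tested, 1 rose, none fell, and the median was -0.16. Over all genes 9.74% were called higher and 9.77% lower. At an unadjusted p under 0.05, 4 of the further genes were lower and 1 was higher, beside 18.9% and 14.7% of all genes. The gene that rose was Ucp3, a mitochondrial carrier of muscle that is known to respond to fatty acid supply. It read 9.11, 10.63, 9.91 and 10.90 on LPS arrays and 8.85, 8.29, 8.43 and 8.06 on saline arrays, without overlap, LPS 1 being nearest. Its change was 1.73 (SE 0.35, adjusted p = 0.00766), and it kept its call with any 1 array left out. The call was lost with slide series as a block, where the change of 0.70 rests on LPS 1 as the only LPS array. The second slide series is the same contrast and gave the same change.

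Of 25 further peroxisomal genes 17 were tested, 2 fell and none rose, with a median of -0.15, beside 9.77% lower and 9.74% higher of all genes. At an unadjusted p under 0.05 there were 4 lower and 2 higher, beside 18.9% and 14.7% of all genes. Of the 2 that fell, Nudt7 is a peroxisomal coenzyme A diphosphatase. It read 8.52, 8.83, 8.83 and 8.27 on LPS arrays and 9.44, 9.28, 8.86 and 9.25 on saline arrays, without overlap. It fell by 0.60 (SE 0.17, adjusted p = 0.0364), but did not pass when LPS 1, LPS 4, saline 1, saline 2 or saline 4 was left out (adjusted p up to 0.0971).

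Regulators of the pathway changed in both directions, 2 of 16 tested rising and 4 falling, beside 9.74% and 9.77% of all genes. The coactivators of oxidative metabolism were lower. Ppargc1b read 7.44, 7.65, 8.35 and 7.66 on LPS arrays and 10.02, 9.96, 8.70 and 9.79 on saline arrays, without overlap, and fell by 1.85 (SE 0.30, adjusted p = 0.00260). Ppargc1a read 7.58, 7.24, 7.81 and 7.49 on LPS arrays and 8.26, 8.71, 7.92 and 8.14 on saline arrays, without overlap, and fell by 0.73 (SE 0.18, adjusted p = 0.0221). Ppargc1b passed with any 1 array left out, whereas Ppargc1a did not pass when LPS 2, LPS 4 or saline arrays 1 or 2 were omitted. Over 20 other settings Ppargc1b kept its call in 18 and Ppargc1a in 14. Among the settings where Ppargc1a lost it were the mean pixel of each spot (-0.66, limma adjusted p = 0.0580) and slide series as a block (-0.68). Esrrb, an estrogen-related orphan receptor, fell by 1.09 (SE 0.32, adjusted p = 0.0400), and Sirt3, the mitochondrial deacetylase, by 0.74 (SE 0.20, adjusted p = 0.0310).

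The calls of Esrrb and Sirt3 were lost without 5 and 6 of the single arrays, at adjusted p up to 0.0959 and 0.0874. Nrip1, a corepressor of metabolic genes, rose by 0.71 (SE 0.17, adjusted p = 0.0156) and Pparg, the adipogenic nuclear receptor, by 0.57 (SE 0.14, adjusted p = 0.0171). Median scaling over all gene probes, which lowers all genes, ended both of these calls. Ppara, the receptor that drives many of these enzymes, changed by -0.23 (SE 0.13, adjusted p = 0.251), and Esrra by -0.94 (SE 0.36, adjusted p = 0.101). Pparg also lost its call when the probes of a gene were averaged. Within the first scan day the limma fit called none of the 16 regulators, and within the 4 unmarked arrays none of the called genes of the wider pathway and regulator lists.

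Markers of the heart's cell types were read beside these values. For the counts below, the shares over all genes were 9.77% called lower and 9.74% called higher. At an unadjusted p under 0.05 they were 18.9% and 14.7%. The 9 cardiomyocyte markers were all above background, none was called (4 at an unadjusted p under 0.05), 9 of 9 were below 0 and their median change was -0.47, lower than the members' -0.20. Their summed level was 17.30 to 17.70 on LPS arrays and 17.68 to 18.20 on saline arrays. Among neutrophil markers S100a8, S100a9 and Retnlg rose. They were above background on all 4 LPS arrays but on only 3, 2 and 3 saline arrays, so the LPS arrays alone met the filter for each. The summed level of the 4 measured, Csf3r included, was 10.72 to 11.17 against 8.18 to 9.54. The other, Csf3r, was above background on no saline array and entered the test through the LPS arrays alone, and Cxcr2 was above background on no array. White adipocyte markers (3 of 6 measured) summed to 7.84 to 11.21 on LPS arrays and 7.86 to 9.49 on saline arrays, with Plin1, Lep and Retn above background on none. The changes of all 3 were above 0 with a median of 1.59, and none was called (1 at an unadjusted p under 0.05). Adipoq, Cfd and Cidec were each above background on 3 LPS arrays, and on 2, 3 and 1 saline arrays. Brown adipocyte markers (2 of 5 measured, Cidea and Ppara) summed to 9.74 to 10.50 against 10.17 to 10.60, with Elovl3 and Zic1 above background on none. Ucp1 did not pass the filter, and Ppara is also among the regulators above. Endothelial markers summed to 12.41 to 12.98 against 12.88 to 13.32, with 2 of 7 lower. Fibroblast markers summed to 14.39 to 14.69 against 14.02 to 14.37, with Col1a1 and Lum of 6 called lower and Dcn called higher. That sum was set mostly by Dcn, by far the brightest, at a mean of 14.32 against 13.84. Changes of 5 of the 6 were below 0, with a median of -0.69. Macrophage markers (4 of 6 measured) summed to 12.59 to 12.84 against 12.83 to 13.12, with Lyz2 called lower, and the 2 measured of 4 erythroid markers to 13.32 to 14.72 against 14.04 to 15.55, with none called (1 at an unadjusted p under 0.05). With the Myl7 level of each array as a covariate, which was added once the data had been seen, the same 3 members fell. The part of the other cell types in the members' values was not tested.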

How the data were processed

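The deposited scanner files give the intensity of each spot and of its surround at 635 nm; per the file headers they were written by GenePix Pro 4.1.1.4 for a GenePix 4000B scanner (gain 650, 5 µm pixels) and are not normalized. A deposited value table was not used, because 0 of its identifiers occur in the scanner files and it names no genes. Median spot intensities were background-corrected by normexp (offset 50), taken to log2 and quantile normalized over 35078 gene probes in limma 3.58.1 and R 4.3.3. Spots marked bad were missing (3 to 47 an array, none in the members, and no member spot was saturated). The offset shrinks changes of dim genes. A spot counted as above background if, after subtraction of its surround, it was brighter than the 95th percentile of 94 negative-control spots on that array; probes above it on at least 4 of 8 arrays were kept, and the brightest represented its gene.

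The fit covered 12100 features (8875 genes and 3225 unnamed probes), with 4.13 of 10.13 degrees of freedom from the prior, Benjamini-Hochberg adjustment and a threshold of 0.05. The procedure was tested on simulated data. The number of arrays limits the precision. Members and lists were chosen with earlier results of these data known. Values per array are given for members that were called, that did not overlap between groups, or that were listed gatekeepers of a step; the rest are given by change. Genes of the wider pathway lists are named where called, apart from 1 that is not reported here, together with Ppara and Esrra, which were chosen after their values were seen.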

Additional observations from a re-analysis of the deposited data

Results flagged for a closer look

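In 52 groups of 4 arrays, 2 for each tested gene, a single array stood far from the other 3 in 3 cases by Dixon's test, where chance gives about 1 in 20 groups. Acadl read 10.58 on LPS 1, below the other LPS arrays. On saline 2, the other array of the second scan day, it read 10.82, below the other saline arrays. Acad10 read 8.41 on saline 3, above the other saline arrays, and without that array its change was -0.57 (adjusted p = 0.0713). Hadhb read 14.43 on saline 2, above the other saline arrays, and without it the change was -0.16 (adjusted p = 0.421).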

How the results depend on the processing

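No member that fell changed direction in any of 20 settings or 8 omissions of an array. Several settings left these changes exactly as they were: both filter settings, the mean of a gene's probes, the trend and robust prior, and the replicate and redip blocks. The slide series block and the second slide series are the same contrast, resting on LPS 1. The genes were also called from these same arrays, so a kept direction is not independent support. The calls held in 18 of 20 settings for Eci1, 15 for Acad10 and 12 for Ech1. The number of members lower was 1 without the filter on dim probes (15597 genes tested), 0 within the first scan day and 0 within the unmarked arrays. Leaving out 1 array gave 1 to 4. Without the filter the calls of Ech1 (adjusted p = 0.0768) and Acad10 (adjusted p = 0.0672) ended, and cyclic loess ended that of Ech1 (adjusted p = 0.0507). Median scaling over all gene probes ended it too (adjusted p = 0.0571) and brought a call of Acads (-0.86, adjusted p = 0.0460). With the replicate number of the labels as a replicate block, 3 members were lower and 1, Acadvl, was higher (adjusted p = 0.0468). Same-numbered arrays correlated at 0.087, -0.14, 0.089 and -0.082 in their deviations from the group means, and not every array matched its own number best, so the numbers were not taken as pairs. The number higher was 1 with the redip mark as a block and 0 to 1 when 1 array was left out. The members' median of -0.20 was -0.14 under cyclic loess, -0.56 under median scaling over all gene probes, -0.15 within the first scan day, and -0.34 both with slide series as a block and within the second series; leaving out 1 array gave -0.24 to -0.15. In the 20 settings 31 changes turned sign, in 13 members, none of them called. With the spot mean these were Slc27a1 (-0.15), Acadvl (-0.12), Acaa2 (-0.11) and Etfb (-0.13). Cyclic loess turned Decr1 (0.0046) and Etfdh (0.0084), and the mean of a gene's probes turned Acaa2 (-0.082). Median scaling over all gene probes turned Slc27a1 (-0.33), Acaa2 (-0.0078), Eci2 (-0.34), Etfb (-0.28), Ehhadh (-0.030) and Acot2 (-0.076), and that over tested probes Eci2 (-0.0077). Array weights turned Etfb (-0.0063), and the scan day block Slc27a1 (-0.0015) and Etfb (-0.018). The slide series block and the second series gave Decr1 at 0.14, Ehhadh at -0.036 and Acot2 at -0.084. The marked arrays gave Acsl1 at 0.00093, Cpt1b at 0.080, Acadl at 0.37, Hadh at 0.0092, Etfb at -0.49 and Etfdh at 0.15, and the unmarked ones Decr1 at 0.11 and Acot2 at -0.015. Leaving out 1 array turned 12 further changes, in Slc27a1 (-0.063 to 0.22), Acadl (-0.44 to 0.011), Eci2 (-0.036 to 0.21), Decr1 (-0.26 to 0.080), Etfb (-0.13 to 0.28), Etfdh (-0.13 to 0.020) and Ehhadh (-0.039 to 0.12). Over the same settings and omissions the wider mitochondrial list held 0 to 2 genes higher and 0 to 2 lower, the peroxisomal list 0 to 1 and 0 to 3, and the regulators 0 to 2 and 0 to 5. The cause of these differences between settings was not tested. Cpt1a, Hadha, Acot1 and Ehhadh lie at or near background, which limits what can be said of them.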
